A study of Mus musculus with 96 samples.

Results

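Type I interferon response genes were followed in single leukemic cells through 9 genes, Mx1, Isg15, Ifit1, Ifit3, Irf7, Oasl2, Bst2, Usp18 and Apobec3, chosen by name out of 23955 genes in the deposited expression table. RNA-seq libraries of 96 single mouse spleen cells made up the series, and its stated question was which expression changes accompany loss of Dnmt3a function in Flt3-ITD acute myeloid leukemia. Cells were selected with magnetic beads for CD117 (c-Kit), the stem cell factor receptor, and captured on a microfluidic chip before full-length cDNA was made from each. Mouse 2 and mouse 1 gave 48 cells each. Both animals were moribund and had the genotype Flt3ITD/ITD;Dnmt3afl/- with MxCre, so both carried the Flt3 duplication on both alleles and a floxed and a null Dnmt3a allele. MxCre is a recombinase driven by the promoter of an Mx gene, which interferon itself switches on, and whether or when an inducer was given is not stated in the sources used here. Control spleens, Flt3ITD/ITD;Dnmt3afl/fl in the labels, were not analysed here. With 1 genotype in the data, none of the differences below bears on either mutation.

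Type I interferons are secreted proteins that bind the receptor IFNAR1/IFNAR2 and, through the kinases JAK1 and TYK2, activate transcription factors. These join IRF9 and bind a DNA element, the interferon-stimulated response element (ISRE), upstream of many antiviral genes. Blood stem cells, myeloid cells and dendritic cells are all known to respond, and plasmacytoid dendritic cells are known as a major source of the ligand.

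The ISRE is shown first because it is the element through which the pathway reaches many antiviral genes. The motif, GAAA followed by any 2 bases and again GAAA, was searched on both strands in 300-base promoters (250 bases before to 50 after a gene's start) from RefSeq, build GRCm38.p6. Of the 9 members, 7 had a promoter in that table, and 5 of the 7 held the motif, against 3.99% of all 27025 genes. The stretches below run 5′ to 3′ in the direction of the gene, with the matched bases in capitals and 25 bases on either side. They lie at chr4:156200850-156200921 (minus strand, Isg15), chr19:34640760-34640838 (plus strand, Ifit1), chr19:34583348-34583441 (plus strand, Ifit3), chr8:71537562-71537627 (minus strand, Bst2) and chr15:79892243-79892302 (plus strand, Apobec3).
Isg15: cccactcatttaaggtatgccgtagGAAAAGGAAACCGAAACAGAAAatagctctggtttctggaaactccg
Ifit1: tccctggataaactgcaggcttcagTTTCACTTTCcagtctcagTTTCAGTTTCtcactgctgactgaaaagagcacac
Ifit3: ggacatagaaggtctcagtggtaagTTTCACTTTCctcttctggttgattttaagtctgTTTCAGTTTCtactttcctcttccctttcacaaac
Bst2: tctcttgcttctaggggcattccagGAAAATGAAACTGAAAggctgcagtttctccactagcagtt
Apobec3: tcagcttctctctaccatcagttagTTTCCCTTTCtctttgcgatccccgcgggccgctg
Isg15 held 3 overlapping matches, Bst2 held 2 overlapping matches, Ifit1 and Ifit3 held 2 separate ones each, and Apobec3 held 1 at 1 of its 2 starts. The first matched base lay 78 bases before the start in Isg15 and 156 bases before it in Ifit3. The windows of Irf7 and Oasl2 held no match. The gamma-activated site TTCNNNGAA, searched the same way, stood in 9.55% of all genes and, among the 7 members, in Bst2. A match describes these letters and is not evidence of binding.

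Levels are in TPM, length-normalized transcript abundance, in which each cell sums to 1000000. A gene was counted in a cell at 10 TPM or more and called high at 100 TPM or more. Sequencing depth cannot be read from TPM, so genes detected at 1 TPM or more were counted instead: their median was 3083 (range 1604 to 6018) in mouse 2 and 3606 (1759 to 5559) in mouse 1. Following the level of 1 of 3 marker genes at 1000 TPM or more, cells were placed in states: H2-Aa, an MHC class II chain (19 cells of mouse 2 and 14 of mouse 1), S100a8, a calcium-binding protein of neutrophils (8 and 0), Mpo, myeloperoxidase of myeloid progenitors (12 and 13), several of these markers (3 and 1), and none, called the rest (6 and 20). Kit itself reached 10 TPM in 22 cells of mouse 2 and 33 of mouse 1. Each side held 1 animal, so values carry no test and no p-value, and shares carry exact (Clopper-Pearson) 95% intervals that cover the counting of cells only. Animal and capture round cannot be told apart, nor can animal and sex: Xist, the RNA of the silenced X chromosome, reached 10 TPM in 0 cells of mouse 2 and 36 of mouse 1.

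Most members stood together in a single cell. Cell 57 of mouse 2, an H2-Aa-high cell, had 8 of the 9 members above 100 TPM, and the ninth, Ifit3, was listed at 0 in each of the 96 cells. No other cell had more than 3 members at 10 TPM. At that level the 48 cells of mouse 2 comprised 7 with no member, 22 with 1, 12 with 2, 6 with 3 and cell 57 with 8, whereas those of mouse 1 comprised 23 with none, 19 with 1, 4 with 2 and 2 with 3. Cells with 5 or more members were therefore 1 of 48 in mouse 2 (2.08%, interval 0.0527 to 11.1%) and 0 of 48 in mouse 1 (upper bound 7.40%). The same single cell was found at 1 TPM and at 100 TPM.

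**Figure D1:**
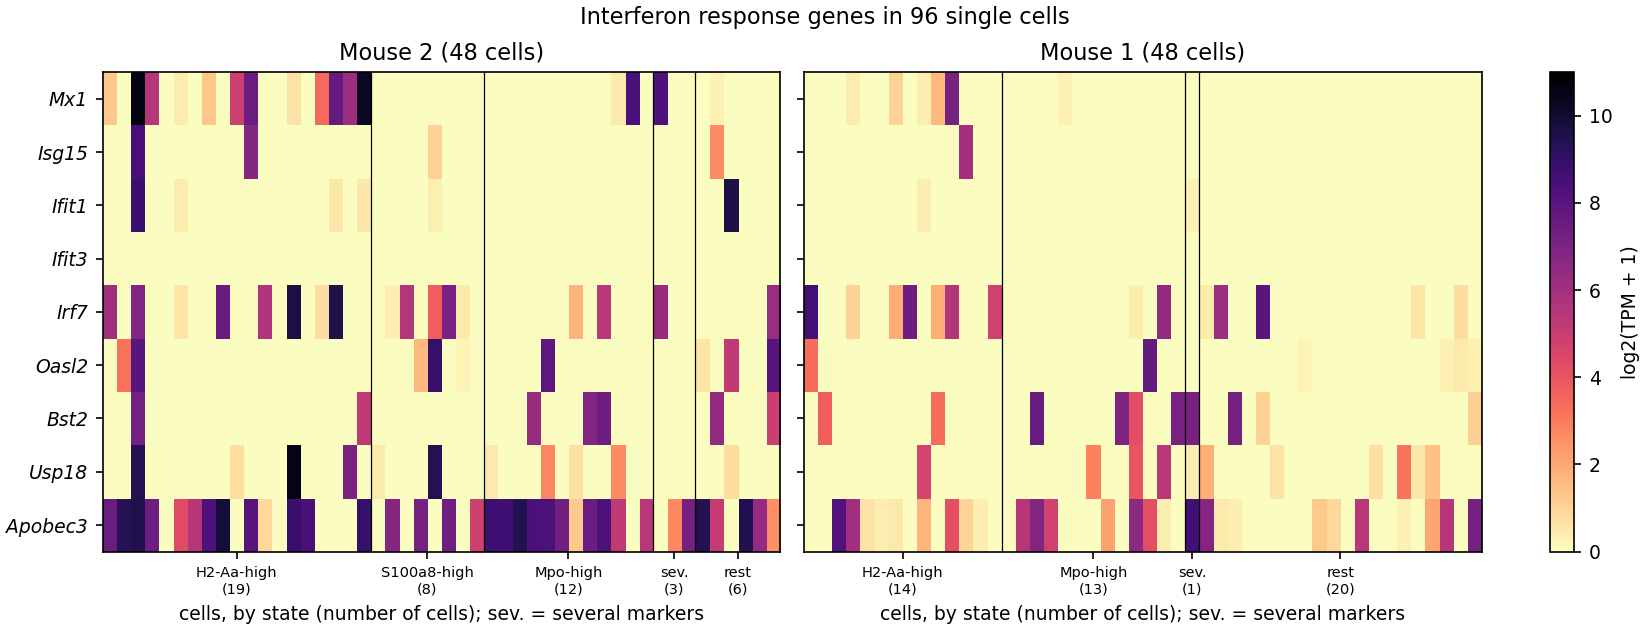
Level of the 9 members, as log2(TPM + 1), in each of 48 cells of mouse 2 (left) and 48 cells of mouse 1 (right), with cells grouped by state and the number of cells of each state below. Cell 57 is the column of the H2-Aa-high cells of mouse 2 in which 8 rows are dark, and Ifit3 is at 0 throughout.

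Levels in cell 57 were 1555 TPM for Mx1, 353 for Isg15, 443 for Ifit1, 117 for Irf7, 256 for Oasl2, 149.9 for Bst2, 663 for Usp18 and 704 for Apobec3. It was the highest of the 96 cells for Mx1 and Isg15, the second highest for Ifit1 and Apobec3, the third for Oasl2, Bst2 and Usp18, and the eighth for Irf7. The 8 values summed to 4241 TPM, and the next highest sum in mouse 2 was 2693 TPM. Cell 57 was not rich in detected genes: it had 2387, and 10 of the other 47 cells of mouse 2 had fewer. The cell was singled out after its values were seen.

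**Figure D2:**
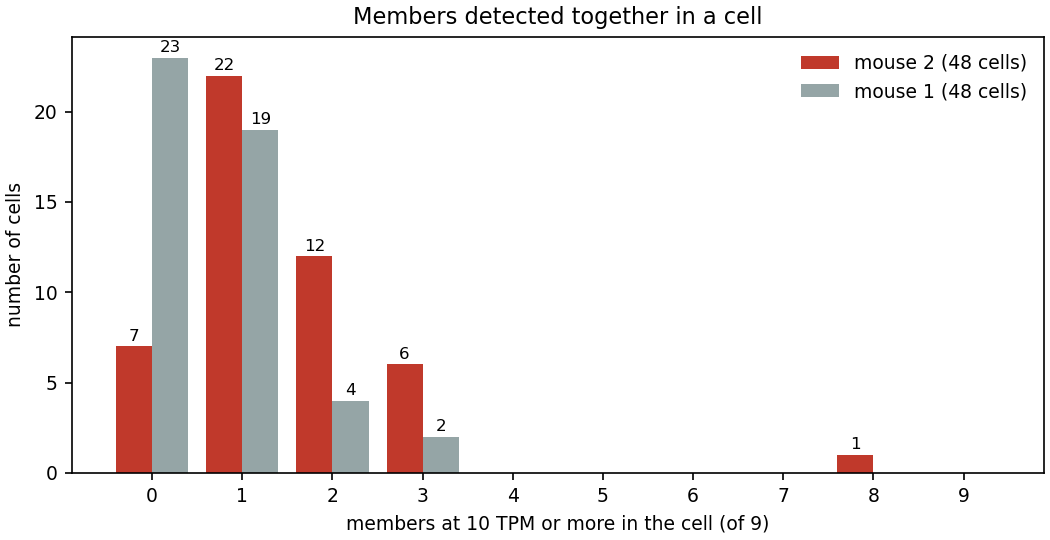
Number of cells (vertical axis) that had a given number of the 9 members at 10 TPM or more (horizontal axis), for mouse 2 and mouse 1, 48 cells each. Cell 57 of mouse 2 stands alone at 8 members, and the remaining 95 cells lie between 0 and 3.

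Genes that were not members gave a second reading of the same cell. A list of 48 further interferon-stimulated genes, all in the table, had 45 that reached 10 TPM somewhere. Cell 57 had 23 of the 48 at 10 TPM, and the other H2-Aa-high cells of mouse 2 had 4 to 15 with a median of 9. The next highest count in any cell was 21, in cell 94 of mouse 2, a cell of the rest with 5096 detected genes. Cells 69 and 84 of mouse 2 had 18 and 16. At 1 TPM cells 57 and 94 both had 27. At 100 TPM cell 57 had 17 of the list, and the next highest count was 11. The list was not high in cell 57 throughout: 13 of the 45 genes were at 0 there, among them Oas1g, Ifi44 and Rtp4, which reached 745, 714 and 472 TPM in other cells. It was the highest of the 96 cells for 9 of the 45 genes (20.0%), against 1.35% of the 12249 genes that reached 10 TPM in some cell. Over all cells, a single cell was the highest for a median of 114 genes, with a range of 43 to 405.

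These 9 genes were Mx2, Ifit2, Ifit3b, Rsad2, Cmpk2, Dtx3l, Slfn2, Uba7 and Ifi204. Rsad2, which makes an antiviral nucleotide, stood at 476 TPM in cell 57 and at most at 15.95 TPM elsewhere. Ifit2, an RNA-binding relative of Ifit1, stood at 986 TPM in cell 57 and at most at 309 TPM elsewhere. Mx2, the neighbour and paralog of Mx1, stood at 484 TPM in cell 57 and at most at 202 TPM elsewhere. Uba7, the enzyme that activates ISG15 for conjugation, stood at 1097 TPM in cell 57 and at most at 458 TPM elsewhere. Ifi204, a DNA-sensing PYHIN protein, stood at 119 TPM in cell 57 and at most at 14.4 TPM elsewhere, and Ifit3b is described with Ifit3. The margin was smaller for the other 3 genes: Slfn2 had 1800 TPM in cell 57 and 1605 TPM in the next cell, Cmpk2 had 715 and 667 TPM, and Dtx3l had 260.6 and 238.6 TPM.

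Among regulators a similar picture was limited to single genes. Cell 57 was the highest cell for 1 of 8 negative regulators and 1 of 16 sensors and adaptors. It was highest for 0 of 10 receptors and signal transducers, and for 0 of the 5 listed interferon regulatory factors that reached 10 TPM. Its rank by genes at 10 TPM was 2 for negative regulators, 13 for sensors, 12 for receptors and 14 for regulatory factors. These ranks were shared with 4, 11, 13 and 21 other cells, in that order. Socs1, an inhibitor of the JAK kinases that cytokine receptors induce, stood at 556 TPM in cell 57 and at most at 9.59 TPM in the other 95 cells. Myd88, an adaptor of Toll-like receptors, stood at 1021 TPM in cell 57 and at most at 826 TPM elsewhere. Of the 15 genes that respond chiefly to interferon gamma, cell 57 had 6 at 10 TPM, and the other H2-Aa-high cells of mouse 2 had 0 to 4 with a median of 1. Cell 5 of mouse 1 had the most, 9. Tgtp2, an immunity-related GTPase, was highest in cell 57, at 1738 TPM, with 1472 TPM in the next cell.

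**Figure D3:**
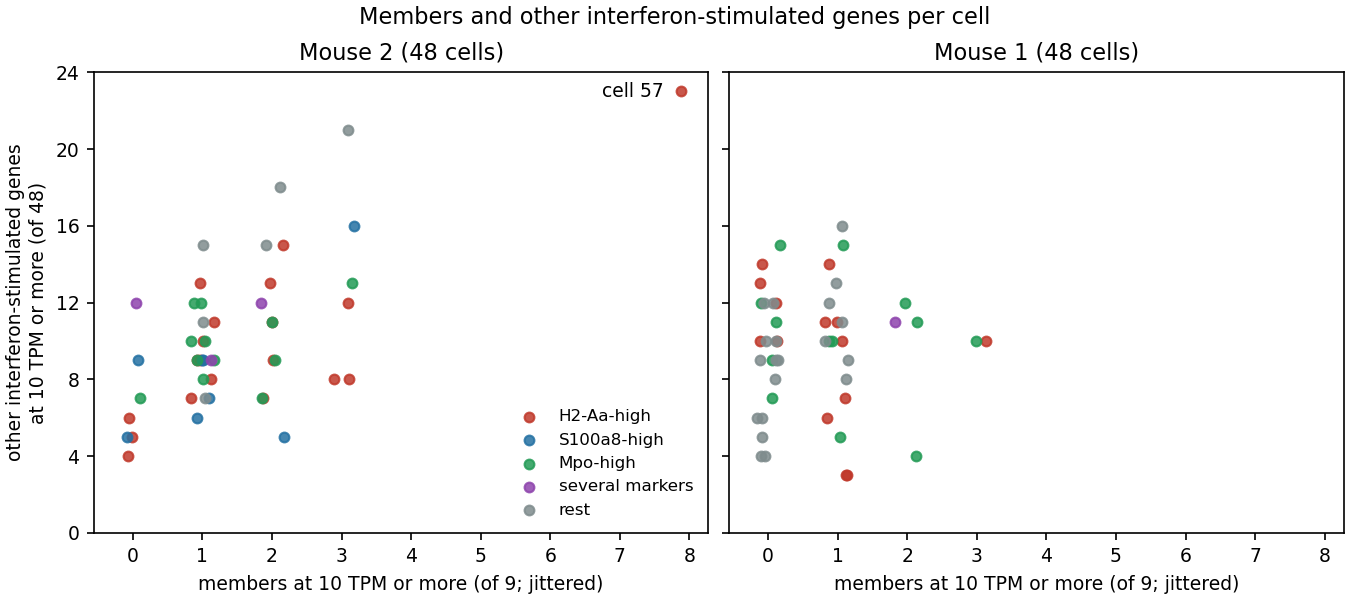
Number of other interferon-stimulated genes at 10 TPM or more, out of 48 (vertical axis), against the number of members at 10 TPM or more, out of 9 (horizontal axis, jittered), for each cell of mouse 2 (left) and mouse 1 (right), coloured by state. Cell 57 lies at 8 members and 23 other genes, and no other cell has more than 3 members or 21 other genes.

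Cell 57 was H2-Aa-high by the rule that set the states, with 35302 TPM of H2-Aa, and had 30392 TPM of Cd74, the class II invariant chain. Of 10 genes on a list for class II-high dendritic cells, cell 57 had 5 at 100 TPM. The other 18 H2-Aa-high cells of mouse 2 had 6 to 9 of them, with a median of 8. The other 18 H2-Aa-high cells of mouse 2 had 18594 to 39479 TPM of H2-Aa. Xcr1, the XCL1 receptor found on dendritic cells that cross-present antigen, was lower in cell 57, at 15.8 TPM, than in each of those 18 cells, whose range was 116 to 1688 TPM. Clec9a, a receptor for dead cells on the same dendritic cells, stood at 5.97 TPM in cell 57, inside the range of 0.33 to 1165 TPM of the 18 cells but below their median of 346 TPM. Batf3, a transcription factor of those dendritic cells, stood at 16.9 TPM in cell 57, against a median of 232 TPM. Itgax and Zbtb46, also on the list, stood at 0.29 and 0 TPM in cell 57, within the range of the 18 cells. Naaa, a lysosomal amidase on the same list, stood at 2835 TPM in cell 57, close to the median of 2649.9 TPM in the 18 cells. Kit was at 62.6 TPM, and the progenitor and neutrophil genes Mpo and S100a8 were at 1.39 and 31.8 TPM, within the range of the 18 cells. Whether cell 57 held RNA of more than 1 cell was not tested.

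No ligand was found beside the response. Of 21 interferon genes, among them Ifnb1, Ifng and the Ifna genes, 0 reached 10 TPM in any cell, and Ifnz alone was above 0, at most at 0.31 TPM. Of the receptors and signal transducers, 10 of 10 reached 10 TPM in some cell, as did 12249 of the 23955 genes. Ifnar1 did so in 20 cells of mouse 2 and 23 of mouse 1, Ifnar2 in 20 and 24, Ifngr2 in 24 and 20, and Stat2 in 16 and 10. In cell 57 Ifnar1 stood at 9.38 TPM and Ifnar2 at 0. Of 9 plasmacytoid dendritic cell markers, Siglech and 6 others reached 10 TPM in 0 cells of either mouse, Ccr9 did so in 1 cell of mouse 2, and Tcf4, a transcription factor not limited to that cell type, did so in 16 cells of mouse 2 and 24 of mouse 1. Their summed level ran from 0 to 126 TPM in mouse 2 and from 0 to 175 TPM in mouse 1. In cell 57 the 9 markers of that type were at 0 except Ccr9, at 0.27 TPM.

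Mx1, a dynamin-like GTPase that blocks incoming viruses, lies at chr16:97447035-97462907 on the minus strand (GRCm38, GENCODE M21). It reached 10 TPM in 9 cells of mouse 2 (18.8%, interval 8.95 to 32.6%) and in 1 cell of mouse 1 (2.08%, interval 0.0527 to 11.1%). Mx1 levels in those cells were 28.2 to 1555 TPM with a median of 204 TPM in mouse 2, and 140.0 TPM in the cell of mouse 1. Both medians over 48 cells were 0. Cells of 1 kind held most of it: 7 of the 9 in mouse 2 were H2-Aa-high, and an eighth had H2-Aa and a further marker above 1000 TPM. The ninth was Mpo-high, at 344 TPM, and the cell of mouse 1 was H2-Aa-high. In both mice together, 9 of 10 Mx1 cells had H2-Aa at 1000 TPM or more, as did 35.4% of the 96 cells. The 8 S100a8-high cells of mouse 2 were each listed at 0.

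Among the 19 H2-Aa-high cells of mouse 2, Mx1 ran from 0 to 1555 TPM with a median of 1.39 TPM. Cell 93, at 1207 TPM of Mx1, came closest to cell 57, yet had Bst2 at 37.8 TPM and Apobec3 at 493 TPM as its other members at 10 TPM. Cell 85 paired 204 TPM of Mx1 with 713 TPM of Irf7. Cell 71 paired 176 TPM of Mx1 with 107 TPM of Isg15 and 262 TPM of Apobec3. Bst2, Irf7 and Isg15 were thus each the partner of Mx1 in 1 of these 3 cells, and Apobec3 in 2 of them.

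Isg15, a ubiquitin-like protein that is attached to other proteins (chr4:156199424-156200818, minus strand), was found in few cells. It reached 10 TPM in 2 cells of mouse 2, at 353 and 107 TPM, and in 1 cell of mouse 1, at 60.3 TPM. Those 3 cells were H2-Aa-high, and 75.7% of the summed Isg15 TPM of mouse 2 came from cell 57. Usp18, the protease that removes ISG15 and restrains signalling at the receptor (chr6:121245906-121270917, plus strand), reached 10 TPM in 4 cells of mouse 2 and 3 of mouse 1. Usp18 levels in the cells of mouse 2 were 1442, 667, 663 and 139 TPM. In the cells of mouse 1 they were 41.4, 24.5 and 15.4 TPM, each below each of those 4. Only in cell 57 did Usp18 and Isg15 share a cell at 10 TPM. Cell 77, with the highest Usp18, had 796 TPM of Irf7 and 454 TPM of Apobec3.

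Ifit1, which binds foreign RNA at its 5′ end (chr19:34640871-34650009, plus strand), reached 10 TPM in cell 57 and in cell 69, a cell of the rest in mouse 2 with 785 TPM. In mouse 1 it did so in 0 of 48 cells (upper bound 7.40%) and reached at most 0.30 TPM. Cell 69 had Oasl2 at 35.3 TPM and no further member at 10 TPM. Ifit3 (chr19:34583531-34588731, plus strand), a partner of Ifit1 in the same gene cluster, was listed at 0 in 96 of 96 cells. Its neighbour Ifit3b (chr19:34607970-34613401, plus strand), in the table under the older symbol I830012O16Rik, stood at 575 TPM in cell 57 and at 0 in the other 95.

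Ifit3 and Ifit3b are near copies, so their values are uncertain. Their longest transcripts in GENCODE M21 were identical at 98.0% of 1697 aligned bases, against 67.3% of 1560 for Ifit3 and Ifit1. The 94-base promoter window printed above for Ifit3 differed from that of Ifit3b at 0 bases. Reads of either gene could have been assigned to the other, and the split between them in cell 57 was not tested. A value of 0 can also be a missed gene: of common housekeeping genes, Hprt was at 0 in 11 of the 96 cells and Tbp in 58.

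Oasl2, an oligoadenylate synthetase-like protein (chr5:114896936-114912234, plus strand), reached 10 TPM in 5 cells of mouse 2 and 1 of mouse 1. Oasl2 levels in mouse 2 were 486 TPM in cell 84, 269 in cell 94, 256 in cell 57, 229.5 in cell 64 and 35.3 in cell 69. The cell of mouse 1 had 203 TPM. Of its 6 cells at 10 TPM, 1 had H2-Aa at 1000 TPM or more, as did 35.4% of the 96 cells. For Mx1 it was 9 of 10 cells and for Isg15 3 of 3, so the contrast rests on few cells. Cell 84, S100a8-high, also had Usp18 at 667 TPM and Irf7 at 12.1 TPM, with 16 of the 48 other interferon-stimulated genes.

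Irf7, the transcription factor that amplifies interferon gene expression (chr7:141262706-141266481, minus strand), was found in more cells and in both mice. It reached 10 TPM in 12 cells of mouse 2 (25%, interval 13.6 to 39.6%) and 7 of mouse 1 (14.6%, interval 6.07 to 27.8%). Irf7 levels there ran from 12.1 to 796 TPM in mouse 2 and from 26.97 to 389 TPM in mouse 1, and the groups overlapped. It was spread over states: 6 of 19 H2-Aa-high cells, 3 of 8 S100a8-high, 1 of 12 Mpo-high, 1 of 3 with several markers and 1 of 6 rest cells in mouse 2 had it. In mouse 1 it was in 4 of 14 H2-Aa-high, 1 of 13 Mpo-high and 2 of 20 rest cells.

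Bst2, or tetherin, which holds budding virus at the cell surface (chr8:71534255-71537456, minus strand), did not follow the others. It reached 10 TPM in 7 cells of each mouse (14.6%, interval 6.07 to 27.8%). Bst2 levels there were 30.1 to 168 TPM in mouse 2 and 12.3 to 187 TPM in mouse 1. It was found at that level in 3 of 12 Mpo-high cells of mouse 2 and 4 of 13 of mouse 1, and in 2 of 19 H2-Aa-high cells of mouse 2 and 1 of 14 of mouse 1. Bst2 is also a surface marker of plasmacytoid dendritic cells, whose defining gene Siglech was in no cell at 10 TPM, as given above.

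Apobec3, a cytidine deaminase that restricts retroviruses (chr15:79891659-79915906, plus strand), differed from the other members in being common. It reached 10 TPM in 31 of 48 cells of mouse 2 (64.6%, interval 49.5 to 77.8%) and in 13 of 48 of mouse 1 (27.1%, interval 15.3 to 41.8%). At 100 TPM the counts were 24 and 5. Apobec3 ran from 0 to 904 TPM with a median of 95.2 TPM in mouse 2, and from 0 to 391 TPM with a median of 0.28 TPM in mouse 1. The mice overlapped over the whole range of mouse 1.

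Apobec3 was higher in mouse 2 within each state that both mice held in number. H2-Aa-high cells had it at 10 TPM in 12 of 19 in mouse 2 and 3 of 14 in mouse 1, with medians of 169 and 0.35 TPM. Mpo-high cells had it in 10 of 12 in mouse 2 and 5 of 13 in mouse 1, with medians of 246 and 0.27 TPM. Rest cells had it in 4 of 6 in mouse 2 and 4 of 20 in mouse 1, with medians of 57.8 and 0.12 TPM. The S100a8-high cells of mouse 2 had it in 4 of 8, with no such cells in mouse 1. The difference was thus present within states as well as over all cells. Without cell 57 the mean was 186 TPM in mouse 2, against 29.8 TPM in mouse 1.

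**Figure D4:**
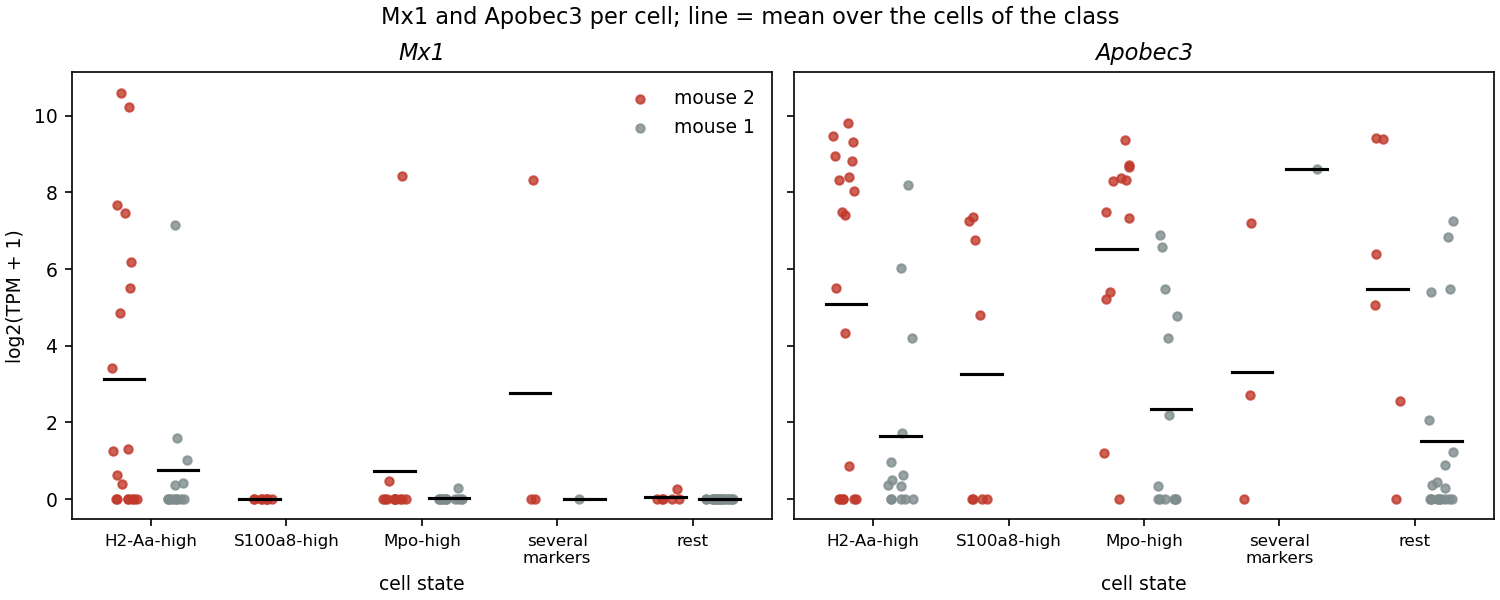
Mx1 (left) and Apobec3 (right) as log2(TPM + 1) in each cell, by state, with mouse 2 left of mouse 1 in each pair and a line at the mean over the cells of that class. Mx1 lies mainly in the H2-Aa-high cells of mouse 2 (7 of 19 at 10 TPM or more), whereas Apobec3 is present in each state of mouse 2.

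The mice were then compared on means over cells of log2(TPM + 1), mouse 2 minus mouse 1, a scale that understates differences of low genes. Of the 9 members, 7 were higher in mouse 2, Bst2 was lower and Ifit3 was equal, at 0. Over the 11471 genes that averaged at least 1 TPM in either mouse, a set that includes 8 of the 9 members, 33.1% were higher in mouse 2. The members' median difference was 0.41, and that of all genes was -0.19. Mx1 and Apobec3 were higher by 1 or more, which 1.53% of genes were, and 11.1% were lower by 1 or more, none of them a member.

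Apobec3 had a difference of 3.16, with a mean of 197 ± 244 TPM over the 48 cells of mouse 2 and 29.8 ± 75.1 TPM over the 48 of mouse 1 (SD over cells), the third largest positive difference of the 11471 genes. Mx1 had a difference of 1.38, with 82.5 ± 286 TPM in mouse 2 and 2.997 ± 20.2 TPM in mouse 1, and ranked 68th. On the log2 scale the SD over the cells of mouse 2 was 3.73 for Apobec3 and 3.12 for Mx1, each larger than the difference. The rest were smaller, and small beside the spread between cells: 0.66 for Oasl2, 0.61 for Irf7, 0.41 for Ifit1, 0.40 for Usp18, 0.27 for Isg15 and -0.11 for Bst2. Leaving out cell 57 lowered them to 0.51 for Oasl2, 0.50 for Irf7, 0.23 for Ifit1, 0.22 for Usp18 and 0.10 for Isg15. Without that cell Mx1 stood at 1.19, Apobec3 at 3.07 and Bst2 at -0.24. The members' median was then 0.23.

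**Figure D5:**
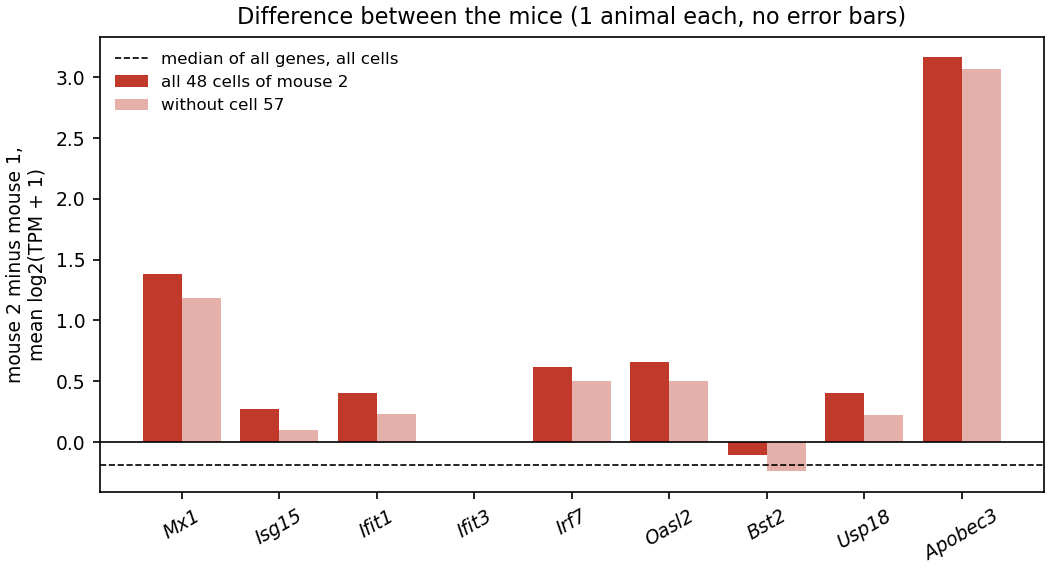
Difference in mean log2(TPM + 1), mouse 2 minus mouse 1, for each member over 48 cells of each mouse (dark bars) and without cell 57 of mouse 2 (light bars); the dashed line is the median of all genes. Apobec3 (3.16) and Mx1 (1.38) stand apart with or without that cell, and there are no error bars because each side is 1 animal.

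Inside single states the mouse difference held for Apobec3 at 3.45 in H2-Aa-high, 4.19 in Mpo-high and 3.96 in rest cells. Among H2-Aa-high cells 8 of 9 members were higher in mouse 2, where 43.7% of genes were, and 3 were higher by 1 or more, where 6.56% of genes were: Apobec3, Mx1 at 2.38 and Usp18 at 1.12. Among Mpo-high cells 4 of 9 members were higher in mouse 2, where 45.3% of genes were, and 1 by 1 or more, where 10.3% of genes were: Apobec3, ranked first of 10497 genes. Among rest cells 7 of 9 were higher, where 49.1% of genes were, and 4 by 1 or more, where 19.1% were, from 6 cells of mouse 2 and 20 of mouse 1. The filter of 1 TPM behind these percentages was passed by 8 members in H2-Aa-high, 6 in Mpo-high and 5 in rest cells, and Mx1 and Isg15 were higher in rest cells without passing it. The largest of these after Apobec3 was Oasl2, at 2.24, which rests on 2 cells.

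The states were compared with the rest inside each mouse. Percentages and medians of all genes are over genes that averaged at least 1 TPM in either class. That filter was passed by 5 to 8 of the 9 members in the state comparisons, whereas the members' medians are over all 9 unless stated. H2-Aa-high cells had a median member difference of 0.13 (0.28 over the 6 members that passed the filter) against all genes at -0.49 in mouse 1. In mouse 2 the members were evenly split, so their median of 0.00 is the value of Ifit3, which was at 0 throughout, and is not read against the -0.79 of all genes. In mouse 2, 4 of 9 members were higher in H2-Aa-high than in rest cells, where 30.6% of genes were, and in mouse 1 it was 7 of 9, where 29.1% of genes were. In mouse 2, 3 members were higher by 1 or more, where 9.4% of genes were, and 3 were lower by 1 or more, where 43.2% were: Ifit1, Oasl2 and Bst2. In mouse 1 Irf7 was higher by 1 or more, where 8.9% of genes were. Mx1 and Irf7 were higher in H2-Aa-high cells in both mice: Mx1 by 3.09 in mouse 2 and 0.75 in mouse 1, and Irf7 by 1.41 and 1.43. Usp18 was higher by 1.32 in mouse 2 and differed by -0.08 in mouse 1. Detected genes differed alongside, with medians of 2636 in H2-Aa-high and 4252 in rest cells of mouse 2, and their part in these values was not tested beyond a linear adjustment.

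Mpo-high cells had a median member difference from the rest of -0.18 against all genes at 0.25 in mouse 2, and 0.02 against 0.29 in mouse 1. Over the members that passed the filter alone, the medians were -0.18 in mouse 2 (7 members) and 0.53 in mouse 1 (5 members). In mouse 1 the order of members and all genes thus depended on the members counted. Members higher in Mpo-high cells were 3 of 9 in mouse 2, where 56.9% of genes were, and 5 of 9 in mouse 1, where 62.4% were. In mouse 2 Apobec3 was higher by 1 or more, at 1.06, where 23.3% of genes were, and Ifit1 and Oasl2 were lower by 1 or more, where 17.2% were. In mouse 1 Bst2 was higher by 1 or more, where 22.4% of genes were, and 0 members were lower by 1 or more, where 5.82% were. Bst2 differed by -0.18 in mouse 2 and 1.53 in mouse 1, so its excess in Mpo-high cells over the rest was seen in mouse 1. S100a8-high cells of mouse 2 had a median member difference from the rest of -0.31 over the 9 members. Over the 6 that passed the filter it was -1.26, against all genes at -0.91. Higher were 2 of 9 members, Irf7 by 1.10 and Usp18 by 1.09, where 28.6% of genes were. Both passed 1, which 11.4% of genes did, and 3 members were lower by 1 or more, where 47.1% of genes were.

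Outside cell 57, 18 of the other 47 cells of mouse 2 and 6 of 48 of mouse 1 had 2 or 3 members at 10 TPM. Leaving out Ifit3, which no cell had, 28 of 28 pairs of members met in at least 1 cell of mouse 2, and 16 did so without cell 57, against 8 of 28 in mouse 1. Of the 21 of these pairs without Apobec3, 10 met in a cell other than cell 57 in mouse 2, and 3 met in mouse 1. Leaving Apobec3 out, 25 cells of mouse 2 and 31 of mouse 1 had no member at 10 TPM. The mean pairwise Spearman correlation, over 28 pairs with values, was 0.14 across the 48 cells of mouse 2, 0.03 without cell 57, and 0.02 in mouse 1. The cells of a mouse share 1 capture, and correlations of sparse values this weak are given as a description.

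The share of a member's summed level held by 1 cell varied widely. In mouse 2 the highest cell held 39.3% of the summed TPM for Mx1, 75.7% for Isg15, 63.9% for Ifit1, 34.4% for Irf7, 37.8% for Oasl2, 25.2% for Bst2, 49.3% for Usp18 and 9.56% for Apobec3. The median over 10301 genes was 35.3%. Isg15 and Ifit1 lay well above that median and Apobec3 well below it. In mouse 1 the highest cell held 97.3% for Mx1, 100% for Isg15, 58.8% for Ifit1, 36.7% for Irf7, 95.2% for Oasl2, 23.9% for Bst2, 40.7% for Usp18 and 27.3% for Apobec3. The median over the 10688 genes that averaged at least 1 TPM in mouse 1 was 30.4%. Ifit1 was not among these genes: it was above 0 in 2 cells of mouse 1, at most at 0.30 TPM.

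The count of members in a cell and the count of other interferon-stimulated genes had a Spearman correlation of 0.47 over the 48 cells of mouse 2, 0.43 without cell 57, and 0.06 in mouse 1. Both counts rest on the same libraries. The count of members had a correlation with detected genes of -0.05 in mouse 2 and 0.25 in mouse 1. For the count of other interferon-stimulated genes it was 0.27 in mouse 2 and 0.31 in mouse 1.

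Other genes of the pathway were compared between the mice by list, on the same log2 scale. Of the 45 other interferon-stimulated genes that averaged at least 1 TPM, 28 were higher in mouse 2 and 17 lower, with a median of 0.19, where 33.1% of all genes were higher and their median was -0.19. By 1 or more, 5 were higher and 2 lower, where 1.53% and 11.1% of all genes were. Ifi205, of the PYHIN family, was higher by 1.60, averaging 932 TPM in mouse 2 and 411 TPM in mouse 1. Slfn2, a Schlafen protein, was higher by 1.32, with means of 238 and 98.1 TPM. Nmi, an interferon-induced protein, differed by -2.15, averaging 39.6 TPM in mouse 2 and 117 TPM in mouse 1, and Ly6e, the most abundant of the list, by -1.19. The list thus held genes on both sides.

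Of 15 genes that respond chiefly to interferon gamma, 5 were higher in mouse 2, a share near that of all genes, and 10 lower. Their median was -0.28. By 1 or more, 1 was higher and 4 lower, where 1.53% and 11.1% of all genes were. Past that limit both shares of this short list lay above those of all genes. Ifi47, an immunity-related GTPase, differed by -2.12, averaging 109 TPM in mouse 2 and 177 TPM in mouse 1. Tgtp2, of the same family, differed by -2.02, with means of 112 and 271 TPM. Against the same 33.1% of all genes, receptors and signal transducers were split 5 and 5 with a median of 0.02. Interferon regulatory factors were 3 higher and 2 lower, with Irf8, the factor of dendritic cell development, higher by 1.15. Of 16 sensors and adaptors 11 were higher and 5 lower, with Unc93b1, which carries Toll-like receptors to endosomes, higher by 1.10 and Tmem173, the STING adaptor, at -1.95. Of 8 negative regulators 3 were higher and 5 lower, none by 1 or more.

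Over cells, the 10 genes whose level was most like the mean of the members were P2ry14, Rrp1b, Rabggta, Zbtb18, Snx4, Anxa6, Cd2ap, Ppil3, Krcc1 and Myd88. Likeness was the smaller of the Spearman correlations in the 2 mice, 48 cells each, among 4057 genes at 10 TPM in at least 10 cells of each mouse. It ran from 0.35 for P2ry14 to 0.27 for Myd88, against a median of -0.05, and values so low are a description only.

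The second deposited table, in RPKM, held 6 of the 9 members and listed most cells at a floor value of each gene. Mx1 lay above its floor in 1 of 96 cells, which was cell 57, at 1.05 RPKM. Usp18 lay above its floor in 2 cells, cell 57 and 1 other of mouse 2. For Isg15, Irf7 and Bst2 cell 57 lay at the floor. Apobec3 was above its floor in 5 cells of mouse 2 and 4 of mouse 1, and on that table its difference between the mice was -0.022 on the log2 scale. That of Mx1 was 0.011 there, against 1.38 in TPM. The mouse differences of Apobec3 and Mx1 therefore rest on the TPM table alone. Each of the cells above a floor had the same member at 10 TPM or more in the TPM table.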

How the data were processed

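Single-cell RNA-seq libraries of 96 mouse cells were analysed from 2 deposited tables. TPM values for 23955 gene symbols were deposited by the authors in a table named for RSEM, and RPKM values for 9310 Ensembl genes were deposited by the authors in a second table. TopHat2, RSEM and Bowtie2, and the builds mm10 and mm9, stand in the submitters' processing notes; their versions and roles are not given in the sources used here. A total of 0 columns were left without a sample, and columns were assigned to mice by the labels. Pseudocount 1 was used for log2(TPM + 1). Differences are of means over cells, among genes averaging at least 1 TPM in either group. No test was run, since each side is 1 animal, and 0 doublet callers were run. The members and lists were chosen with earlier results of these data known. Named genes were the 9 members, the 3 most abundant and 3 most different genes of each pathway list, the 10 most alike, and marker genes; genes highest in cell 57 were named after their values were seen. Python 3.11.15, pandas 2.3.3, NumPy 2.4.6 and SciPy 1.17.1 were used, and the code was tested on simulated data. Promoters came from RefSeq (GRCm38.p6) and gene positions and transcripts from GENCODE M21. Depth is unknown in both tables. Alternatives covered pseudocount, level filter, rescaling, detected-gene number, state thresholds, cells left out and the RPKM table. One pathway gene that the rule names is not reported here.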

Additional observations from a re-analysis of the deposited data

How the results depend on the processing

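No paired analysis was possible because the mice share no replicate numbers and each is 1 animal, so cells could only be left out. In TPM, cell 57 stayed the single cell with 5 or more members at 1 and 100 TPM. It also stayed the single cell with 4 or 6 members as the limit. With 3 members as the limit, chosen after seeing the data, 7 cells of mouse 2 and 2 of mouse 1 qualified. The count was not made in RPKM. Without cell 57, 0 cells had 5 or more members. The members' median mouse difference of 0.41 was 0.62 with a pseudocount of 0.1, 0.61 over members averaging at least 10 TPM, 0.23 without cell 57 and 0.0045 in the RPKM table, where 3 members were higher. H2-Aa-high minus rest became -0.38 over the more abundant members, 0.14 with detected-gene number removed, 0.14 without each member's highest cell and -0.064 without cell 57 in mouse 2. In mouse 1 it became 0.047 with a pseudocount of 10, 0.21 after rescaling without the 100 most abundant genes, 0.00 without the highest cells and 0.00 in RPKM. Mpo-high minus rest became -0.45 (pseudocount 0.1), 0.00 (pseudocount 10), 0.042 (highest cells left out, a reversal) and 0.00 (RPKM) in mouse 2. In mouse 1 it became 0.13 (pseudocount 0.1), 0.0024 (pseudocount 10), 0.53 over the more abundant members and 0.30 with detected-gene number removed. S100a8-high minus rest in mouse 2 became -0.52 (pseudocount 0.1), -0.084 (pseudocount 10), -0.95 over the more abundant members, -0.83 with detected-gene number removed, 0.00 without the highest cells and 0.00 in RPKM. The mean correlation between members became -0.015 in rest cells and 0.030 without cell 57 in mouse 2, and -0.02 with detected-gene number removed and 0.0017 in rest cells in mouse 1. The median share held by a member's highest cell was 66.6% in mouse 2 and 98.9% in mouse 1 in RPKM, against 38.5% and 49.7% in TPM. Single members reversed for Bst2 (0.10 with detected-gene number removed, 1.43 in rest cells, 0.27 without S100a8-high cells), Usp18 (-0.28 in rest cells), Isg15 (-0.0017 in RPKM) and Apobec3 (-0.022 in RPKM). The cause was not tested, except that leaving cells out removes them by construction. Of the remaining alternatives, 70 left values of the comparisons and 54 those of single members within 1.5 times the reported value (within 0.05 of it where either was 0), and 25 moved single members further without reversing them; at a state threshold of 500 TPM, for instance, mouse 1 had 19 Mpo-high and 14 rest cells. Small classes, such as 6 rest cells in mouse 2, limit each value.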

Other observations

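Levels between 0 and 10 TPM were set beside the cell numbers. Taking cell numbers in steps of 8, 5 of the 6 cells with Ifit1 between 0 and 10 TPM stood at the position of a cell at 100 TPM or more, where 22 of the 94 cells under 10 TPM stood. For Oasl2 it was 9 of 9 such cells, where 54 of the 90 cells under 10 TPM stood. For Mx1 it was 7 of 12, where 53 of 86 cells stood, for Irf7 8 of 12, where 34 of 77 stood, for Usp18 9 of 15, where 43 of 89 stood, and for Bst2 3 of 3, where 58 of 82 stood. For Isg15 it was 0 of 2, where 22 of 93 stood. For Apobec3 it was 18 of 18, where 52 of 52 stood, so the count says nothing for that gene. Counts of members at 10 TPM or more do not use these low values.

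Cell 94 of mouse 2, a cell of the rest, came second to cell 57 in the number of other interferon-stimulated genes, with 21 of 48 at 10 TPM. It had Oasl2 at 269 TPM, Irf7 at 75.9 TPM and Bst2 at 30.1 TPM, with 5096 detected genes against 2387 in cell 57.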
